A study of Mus musculus with 6 samples.

Results

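Collagen genes were followed in the cochlea of mouse embryos with and without Igf1, the gene of insulin-like growth factor 1. The set comprised every gene whose annotated symbol has the form Col, a number, the letter a and a number, with the annotation taken from probe sets assigned to 1 gene. It held 36 of the 12393 genes measured, read by 58 probe sets, with the probe set of highest mean taken for each gene. By class these were 6 fibrillar genes, 7 cartilage genes (types 2, 9, 10 and 11), 6 type 4 genes of basement membranes and 17 others.

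Wild type embryos carried intact Igf1 (Igf-1+/+) and null embryos carried no intact copy (Igf-1-/-), both from matings of heterozygous parents on a C57BL/6J background and both taken at embryonic day 18.5. Cochleae were dissected with the otic capsule and without vestibular tissue, and RNA pooled from 4 cochleae was hybridised to 1 Affymetrix array, with 3 pools per genotype. The titles and descriptions give the genotypes used here, whereas the source field carries the wild type sign for all 3 null samples. A number in the titles, 14 for replicate 1 of each genotype and 16 for the other replicates, has no stated meaning.

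Collagens are secreted structural proteins whose chains wind into a triple helix. Type 1 collagen with its type 3 and type 5 partners forms the fibrils of bone, ligament and connective tissue, while type 2 with types 9 and 11 forms the thin fibrils of cartilage. In the inner ear the cartilage types also occur in the tectorial membrane, and type 4 chains form the sheets that lie under epithelia and around vessels. Loss of certain type 2, type 4, type 9 and type 11 chains is known to impair hearing.

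Levels below are log2 signals after quantile normalization, and differences are null minus wild type on that scale. That step gives every array the same set of values, so a value reflects the rank of a probe set in its array. Col1a1, Col1a2, Col2a1 and Col3a1 lay at or above the 99.9th percentile of gene level, at the top of that scale. The precision of every value is limited by the number of arrays. Every null array read lower than every wild type array at the 3 probe sets of Igf1 itself, with differences of -0.99 ± 0.12 (SE), -0.55 ± 0.15 and -0.46 ± 0.12. Which part of the gene was disrupted is not stated in the labels. Deposited array medians ran from 5.61 in null replicate 1 to 6.37 in null replicate 2, and the next lowest was 6.09, in wild type replicate 3. Of the fixed markers, 8 of 8 measured chondrocyte genes, 5 of 5 osteoblast genes, 8 of 8 genes of fibroblasts and periotic mesenchyme and 9 of 9 endothelial genes lay above background. Of 8 hair cell markers 5 did, and Gfi1, Espn and Slc26a5 did not. Background was set at 3.86, the 95th percentile of 33 probe sets of olfactory receptor genes. A gene was counted as above it where the mean of either genotype was.

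Promoter sequences are shown for Col9a1 and Col1a2, since the arrays of the genotypes did not overlap for either gene after quantile normalization and their upstream windows lay outside other genes. Each is the 250 bases before an annotated RefSeq start site (GRCm38.p6, all on the plus strand), at chr1:24177360-24177609 and chr1:24194953-24195202 for the upstream and downstream starts of Col9a1 and chr6:4505368-4505617 for Col1a2. Capitals mark matches to 4 motifs, each searched on both strands, with no overlap between matches here. They were the TATA box with the letters TATAAA, the box named CCAAT, the GC box with the letters GGGCGG, and a core bound by SOX factors with the letters AACAAT.
Col9a1 upstream: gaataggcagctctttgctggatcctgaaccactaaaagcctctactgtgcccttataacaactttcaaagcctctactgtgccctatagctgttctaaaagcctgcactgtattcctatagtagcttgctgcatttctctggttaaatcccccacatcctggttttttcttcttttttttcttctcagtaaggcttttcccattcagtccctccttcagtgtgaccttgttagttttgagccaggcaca
Col9a1 downstream: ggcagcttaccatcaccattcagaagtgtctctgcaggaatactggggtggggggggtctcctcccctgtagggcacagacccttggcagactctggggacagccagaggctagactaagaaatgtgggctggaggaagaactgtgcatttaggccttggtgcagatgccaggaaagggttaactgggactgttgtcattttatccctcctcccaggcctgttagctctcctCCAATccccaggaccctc
Col1a2: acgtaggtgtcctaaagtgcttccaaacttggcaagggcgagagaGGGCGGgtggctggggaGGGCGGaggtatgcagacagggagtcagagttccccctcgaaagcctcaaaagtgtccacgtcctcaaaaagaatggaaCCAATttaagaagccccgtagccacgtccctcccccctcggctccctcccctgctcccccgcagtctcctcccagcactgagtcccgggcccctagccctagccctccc

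The upstream Col9a1 window held none of the 4 motifs and the downstream window held 1 CCAAT, whereas the Col1a2 window held 2 GC boxes and 1 CCAAT. RefSeq windows were matched for 27 of the 36 collagen genes, in 30 windows. GGGCGG stood in 16 of the 30 (53.3%), against 32.7% of all 32851 windows of that length. CCAAT stood in 12 of the 30, against 33.8% of all windows. TATAAA stood in 5 (16.7%, against 12.4%). The SOX core stood in 1 (3.33%, against 9.42%), the window of Col3a1. Among cartilage genes GGGCGG stood in 3 of 6 windows and among fibrillar genes in 3 of 4. The start sites of Col4a1 and Col4a2 lay 21 bases apart on opposite strands, so that these genes run head to head. This order was not particular to them. Col4a5 and Col4a6 also started on opposite strands, at chrX:141475419 and chrX:141474076, and the window of Col4a4 overlapped Col4a3. These matches describe the letters in the windows only.

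Collagen signal was lower in the null pools for most of the family, by small amounts. Of the 36 genes 31 (86.1%) had a lower mean in null cochleae, where 48.7% of all genes did, and the median difference was -0.20 against 0.0062 over all genes. All 26 collagen genes above the median gene level of 6.64 were lower after quantile normalization, against 48.1% of all genes in that range. That share covers the whole range and was not matched for level. Several collagen genes lay near the top of the range. With each array centred on its median instead, 26 of 36 were lower and 10 higher, and Col1a1, Col3a1, Col11a1, Col18a1 and Col26a1 of those 26 turned higher. On the values as deposited 32 of 36 were lower, on a scale where 75.8% of all genes were. The family median lay below the median of all genes by 0.20 after quantile normalization and by 0.12 under either of the other scalings. Collagen genes share cells and arrays, so the shared sign does not count as 36 separate observations.

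No collagen gene passed limma's test at an adjusted p of 0.05, and 0% of all 12393 genes did. The smallest adjusted p in the family was 0.884 (limma, Benjamini-Hochberg). At an unadjusted p under 0.05 there were 4 members (11.1%), against 4.94% of all genes. Col5a2, Col12a1 and Col4a3 were lower, a direction in which 2.37% of all genes passed, and Col4a4 was higher (2.57%). The 3 null arrays lay wholly below the 3 wild type arrays for 6 members (16.7%), against 4.98% of all genes, and wholly above for 1 (2.78%, against 5.62%). Among genes above the median level, not matched further for level, it was 5 of 26, against 4.97%. The 6 were Col1a2, Col5a2, Col9a1, Col4a2, Col12a1 and Col4a3. With median centring only Col12a1 and Col4a3 of these kept the separation, and 2 of 36 then stood against 4.28% of all genes, a share near the background. On the deposited values 7 members lay wholly lower (4.62% of all genes) and 0 wholly higher (0.888%).

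**Figure D1:**
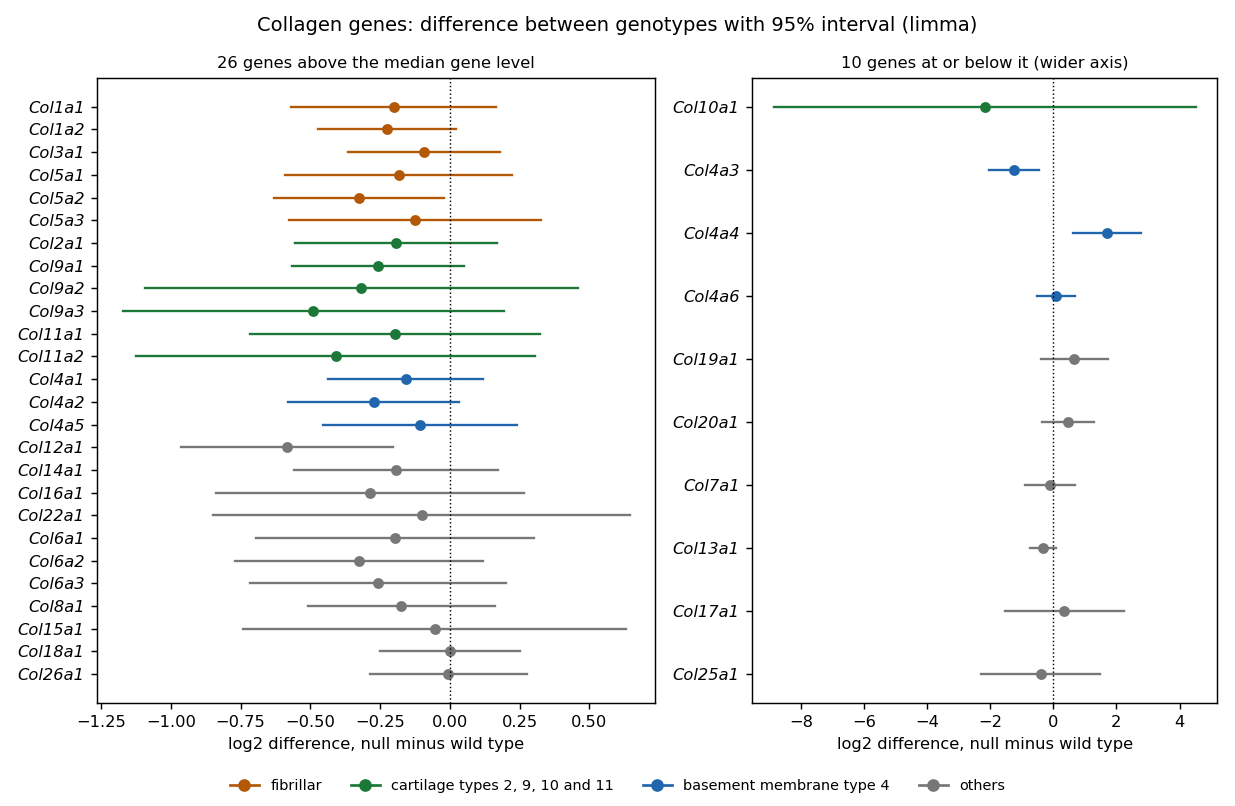
Log2 difference (null minus wild type, horizontal axis) of each of the 36 collagen genes with its 95% interval from limma, 3 arrays per genotype, coloured by class. All 26 genes in the left panel, which lie above the median gene level, stand below 0, and the interval excludes 0 there for Col5a2 and Col12a1. The right panel has a wider axis and holds the 10 dimmer genes, with Col10a1 the widest interval.

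Cartilage collagens were lower in the null pools, all 7 of them, with a median of -0.32, or 0.802 of the wild type level. With median centring 6 of 7 were lower, with a median of -0.27, and Col11a1 stood at 0.027. The sign of Col10a1 rested on null replicate 3. None of the 7 reached an unadjusted p of 0.05 in the fit on genotype alone. With the title number as a block Col11a2 (unadjusted p = 0.00955), Col9a3 (0.0341) and Col9a1 (0.0477) did, where 5.79% of all genes did, and their adjusted p in limma was 0.824 to 0.860. Wild type and null pools sharing a title number did not deviate together over all genes, with correlations from -0.055 to 0.09. Cartilage genes alone were not correlated, and replicate 1 was the lowest of its genotype for each of them but Col10a1. In bulk tissue fewer cartilage cells and less RNA per cell cannot be told apart. Col2a1, the chain of the main cartilage fibril, read 13.16, 13.42 and 13.39 in the wild type arrays and 12.92, 13.21 and 13.26 in the null arrays, in the order of replicates 1 to 3 as in all such series below. Its genotypes overlapped, since wild type replicate 1 lay below null replicates 2 and 3. The difference was -0.19 ± 0.14 (SE), with a 95% interval from -0.56 to 0.17. With median centring it was -0.04 ± 0.15 (SE).

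Type 9 collagen coats the type 2 fibril and links it to other matrix. Col9a1 read 12.59, 12.69 and 12.80 in wild type and 12.27, 12.50 and 12.53 in null arrays, so that the genotypes did not overlap, with a difference of -0.26 ± 0.12 (SE, 95% interval -0.57 to 0.05). At the other Col9a1 probe set the values were 11.45, 11.53 and 11.81 against 10.82, 11.07 and 11.20. There the difference was -0.57 ± 0.16 (SE), with an unadjusted p of 0.0158 and an adjusted p of 0.895 over all probe sets in limma, where 4.99% of probe sets had an unadjusted p under 0.05 and 0% an adjusted one. Both Col9a1 probe sets thus separated the genotypes after quantile normalization. With median centring the difference at the first was -0.03 ± 0.14 (SE) and its arrays overlapped.

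The partner chains of type 9 were lower as well but overlapped. Col9a2 read 9.998, 10.57 and 10.76 in wild type and 9.68, 10.13 and 10.56 in null arrays (-0.32 ± 0.31 SE). Col9a3 read 11.43, 11.75 and 11.85 in wild type and 10.69, 11.26 and 11.61 in null arrays (-0.49 ± 0.27 SE). Null replicate 1 was the lowest array for both. The other 2 probe sets of Col9a3 differed by -0.33 and -0.16.

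Type 11 collagen sits within the type 2 fibril and limits its width. Col11a1 read 12.34, 12.72 and 12.72 in wild type and 12.05, 12.53 and 12.62 in null arrays (-0.20 ± 0.21 SE), and its other probe set differed by -0.11. Col11a2 read 10.47, 11.17 and 11.21 in wild type and 10.14, 10.73 and 10.75 in null arrays (-0.41 ± 0.28 SE). In both genes replicate 1 was the lowest array of its genotype, and wild type replicate 1 lay below the higher null arrays. Replicate 1 was the lowest of its genotype for all 6 cartilage genes other than Col10a1.

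Col10a1, the collagen of hypertrophic chondrocytes, behaved unlike the other cartilage genes. It read 6.79, 7.68 and 7.56 in wild type arrays and 8.48, 7.98 and -0.92 in null arrays. Null replicates 1 and 2 were thus the highest of all 6 arrays, and null replicate 3 alone was under background. The difference was -2.17 ± 2.65 (SE), with a 95% interval from -8.87 to 4.53, and without null replicate 3 it was 0.88 in the other direction (limma, unadjusted p = 0.0631 and adjusted p = 0.891, range of the adjusted p from 0.877 to 1.00 over the 17 alternatives that kept the gene). Mmp13, the collagenase gene that hypertrophic chondrocytes and osteoblasts express, was looked at after its values were seen. It read 9.04, 8.41 and 8.02 in wild type and 9.18, 7.34 and 5.54 in null arrays, with null replicate 3 again the lowest.

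Markers of skeletal cells differed between arrays in more than one order. The mean level of 8 chondrocyte markers was 10.25, 10.38 and 10.60 in wild type and 9.83, 10.14 and 10.26 in null arrays, and 7 of the 8 were lower. Replicate 1 was the lowest of its genotype there, as for the cartilage genes other than Col10a1, whereas Col10a1 was lowest in null replicate 3. That of 6 osteoclast markers, of which Oscar, Ocstamp and Calcr were not above background, ran from 5.63 to 6.46 in wild type and was 6.50, 4.56 and 3.58 in null replicates 1 to 3. The 5 osteoblast markers, all lower, averaged 7.66 to 7.83 in wild type and 7.77, 7.25 and 6.72 in null replicates 1 to 3. For both lists null replicate 3 was the lowest array, as for Col10a1 and Mmp13. Mean levels of neuron, Schwann cell and skeletal muscle markers overlapped between genotypes, while hair cell markers averaged 3.42 to 3.90 in wild type and 4.04 to 4.53 in null arrays and erythroid markers 4.10 to 4.59 and 3.84 to 4.05. Among the hair cell markers the larger differences were those of Slc26a5 (1.93) and Espn (1.18), not above background, and of Pou4f3 (1.25), with a wild type mean of 3.72 below it. The other measured hair cell markers above background, Atoh1, Myo7a, Myo6 and Otof, differed by -0.12 to 0.16. Of 5 erythroid markers 4 were lower, the most Slc4a1 (-1.76). The null means of Slc4a1 (3.43) and Klf1 (3.82) were not above background. Hba-a1, higher by 0.74, was not above background in either genotype. The part of these cells in the collagen values was not tested.

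**Figure D2:**
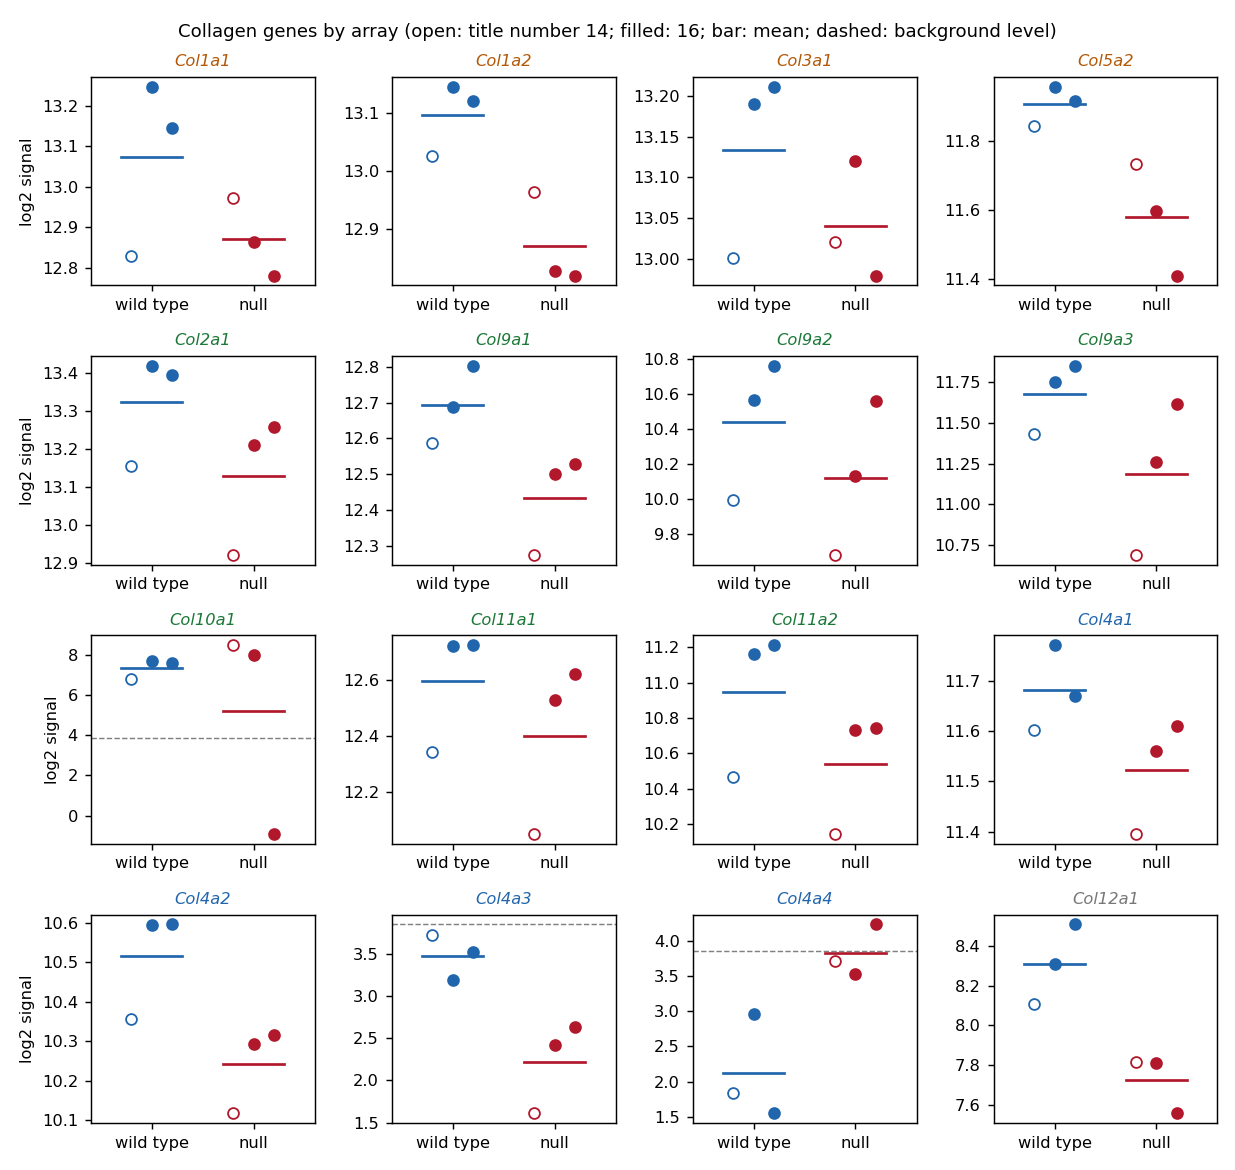
Log2 signal after quantile normalization (vertical axes, a scale per panel) of the 16 collagen genes given by array, with 3 wild type (blue) and 3 null (red) arrays, bars at the group means and a dashed line at the background level of 3.86. Open points are arrays of title number 14. The arrays do not overlap for Col1a2, Col5a2, Col9a1, Col4a2, Col4a3, Col4a4 and Col12a1, and Col10a1 shows null replicate 3 at -0.92.

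Fibrillar collagens of bone and connective tissue were lower in 6 of 6 genes, with a median of -0.19, or 0.875 of the wild type level. With median centring 4 of 6 were lower. Col1a2, the second chain of type 1 collagen, read 13.03, 13.15 and 13.12 in wild type and 12.96, 12.83 and 12.82 in null arrays, without overlap, a difference of -0.23 ± 0.10 (SE, 95% interval -0.47 to 0.02). With median centring it was -0.03 ± 0.19 (SE), with overlap. Its other probe set separated the genotypes too, at -0.33 ± 0.15 (SE).

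Col1a1, the partner chain, differed by probe set. At the probe set with the higher mean it read 12.83, 13.25 and 13.15 in wild type and 12.97, 12.86 and 12.78 in null arrays, a difference of -0.20 ± 0.15 (SE) in which wild type replicate 1 lay among the null arrays. At the other probe set it read 7.38, 7.62 and 7.51 in wild type and 8.46, 7.91 and 7.91 in null arrays. There every null array was higher, by 0.59 ± 0.19 (SE), with an unadjusted p of 0.0250 and an adjusted p of 0.934 over all probe sets in limma. The direction of Col1a1 is therefore not settled by these arrays.

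Col5a2, a chain of the type 5 collagen that starts type 1 fibrils, read 11.85, 11.96 and 11.92 in wild type and 11.73, 11.60 and 11.41 in null arrays. Each null array lay below each wild type array, with a difference of -0.33 ± 0.12 (SE), 0.797 of the wild type level (limma, unadjusted p = 0.0394, adjusted p = 0.977, range of the adjusted p over all alternatives from 0.592 to 1.00). With median centring the difference was -0.18 ± 0.17 (SE), with overlap. Its other probe set overlapped, at -0.15 ± 0.13 (SE). Col3a1, the fibril gene of soft connective tissue and vessels, read 13.00, 13.19 and 13.21 in wild type and 13.02, 13.12 and 12.98 in null arrays, a difference of -0.09 ± 0.11 (SE) within the spread of the arrays. The 2 remaining fibrillar genes, Col5a1 and Col5a3, overlapped at -0.18 and -0.13. Of 8 markers of fibroblasts and periotic mesenchyme 6 were lower, and their mean level was 9.76 to 10.10 in wild type and 9.82 to 10.05 in null arrays. The part of these cells was not tested.

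By title number, fibrillar genes were lower mainly within 16, while the cartilage medians were alike within 14 and 16. Within title number 14, which holds 1 array per genotype, 2 of 6 fibrillar genes were lower in the null array, with a median of 0.08. Within title number 16, with 2 arrays per genotype, 6 of 6 were lower, with a median of -0.34. The cartilage medians were -0.31 within title number 14, with 6 of 7 genes lower, and -0.32 within title number 16, with 7 of 7 lower. Over the family 21 of 36 genes were lower within title number 14, 30 within title number 16 and 18 within both, where 24.9% of all genes were lower within both. Type 4 genes had medians of -0.055 within title number 14 and -0.22 within title number 16. Those of the others were -0.073 and -0.26. The difference between the classes in this respect was not tested.

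Averaged over its genes as deviations from each gene's mean over the 6 arrays, the fibrillar class stood at -0.09, 0.18 and 0.20 in wild type arrays and at -0.025, -0.079 and -0.19 in null arrays. Wild type replicate 1 thus stood lower than null replicates 1 and 2. The cartilage class without Col10a1 stood at -0.13, 0.26 and 0.33 in wild type and -0.50, -0.06 and 0.10 in null arrays, where null replicates 2 and 3 stood above wild type replicate 1. Null replicate 1 was the lowest array of the 6 for 14 of the 36 genes, and wild type replicate 3 the highest for 17. Null replicate 1 was also the array with the lowest deposited median, and the part of this in the collagen values was not tested.

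**Figure D3:**
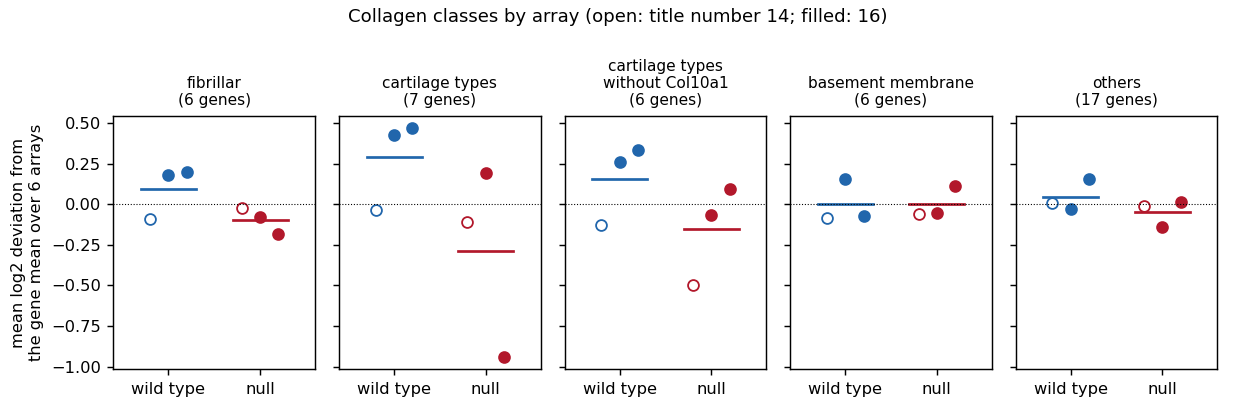
Mean log2 deviation from each gene's mean over the 6 arrays (vertical axis) by genotype for 5 sets of collagen genes, a point per array and a bar at the mean, open for title number 14. The genotypes overlap in all 5 sets, and the cartilage types with Col10a1 stand at -0.94 in null replicate 3. Fibrillar genes stand at -0.09 in wild type replicate 1, below null replicates 1 and 2.

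Type 4 collagens of basement membranes were lower in 4 of 6 genes, with a median of -0.13. The 2 higher genes were Col4a4, not above background, and Col4a6. Col4a1 and Col4a2, whose chains form the sheet found in most basement membranes, were both lower. Col4a1 read 11.60, 11.77 and 11.67 in wild type and 11.39, 11.56 and 11.61 in null arrays, a difference of -0.16 ± 0.11 (SE) with null replicate 3 just above wild type replicate 1. Col4a2 read 10.36, 10.59 and 10.60 in wild type and 10.12, 10.29 and 10.31 in null arrays, without overlap, a difference of -0.27 ± 0.12 (SE, 95% interval -0.58 to 0.03). With median centring the Col4a2 difference was -0.22 ± 0.12 (SE), with overlap, and its arrays overlapped on the deposited values too. The other probe set of Col4a1 differed by -0.25. The 9 endothelial markers averaged 7.13 to 7.33 in wild type and 7.02 to 7.17 in null arrays, with 8 of 9 lower. The part of vessels in these values was not tested.

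Col4a3 and Col4a4, chains that with Col4a5 form the specialised sheet known from the kidney and the cochlea, gave the smallest unadjusted p of the family in opposite directions. Col4a3 read 3.72, 3.19 and 3.53 in wild type and 1.61, 2.42 and 2.63 in null arrays (-1.26 ± 0.31 SE). Col4a4 read 1.84, 2.96 and 1.55 in wild type and 3.71, 3.52 and 4.23 in null arrays (1.71 ± 0.42 SE). In limma the unadjusted p was 0.00890 and 0.00888 and the adjusted p was 0.884 for both, with a range for each from 0.498 to 1.00 over the 16 alternatives that kept these dim genes. Neither group mean of either gene was above the background of 3.86. Against the lower background of 3.58 from Y-linked probe sets, the Col4a4 mean of 3.82 in null arrays lay above it. The other 3 means did not. That level was taken from 6 Y-linked probe sets in the 3 arrays where they read lowest. Whether those genes were silent there was not tested. On the deposited values Col4a4 no longer separated the genotypes. Col4a5, whose arrays overlapped, differed by -0.11 and -0.49 at its 2 probe sets. Col4a6 differed by 0.09, and by -0.67 at its other probe set, which was not above background.

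Among the other collagens Col12a1 gave the clearest separation in the family above background. Type 12 collagen binds to the surface of type 1 fibrils in dense connective tissue. Col12a1 read 8.11, 8.31 and 8.51 in wild type and 7.81, 7.81 and 7.56 in null arrays, so that each null array lay well below each wild type array. The difference was -0.58 ± 0.15 (SE), 0.668 of the wild type level, with a 95% interval from -0.96 to -0.20. The unadjusted p was 0.0104 and the adjusted p was 0.884 in limma, and the adjusted p ran from 0.499 to 1.00 over all alternatives. Col12a1 was lower both within title number 14 (-0.29) and within title number 16 (-0.73), and was lower with an unadjusted p between 0.00109 and 0.0418 under every alternative. It was read by 1 probe set.

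The remaining fibril-associated genes overlapped, with differences of -0.19 for Col14a1, -0.29 for Col16a1 and -0.10 for Col22a1. Those of Col19a1 and Col20a1 were 0.67 and 0.46. The wild type mean of Col19a1 (3.71) was not above background, and its null mean was 4.38. Both other probe sets of Col20a1 also had larger values in the null pools, 1 of them not above background. Type 6 collagen forms beaded filaments around cells, and its 3 measured chains were lower by similar amounts, at -0.20 ± 0.20 (SE) for Col6a1, -0.33 ± 0.18 for Col6a2 and -0.26 ± 0.18 for Col6a3. All 3 were lower within title number 14 and within title number 16. Col8a1, a network collagen of vessels, stood at -0.17 ± 0.13 (SE), and Col7a1, which anchors epithelia to the tissue beneath, at -0.10 ± 0.31.

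Several genes of this class differed by very little. Col18a1, a basement membrane collagen of vessels and epithelia, had a difference of -0.0012 ± 0.10 (SE, 95% interval -0.25 to 0.25), and Col26a1 one of -0.0057 ± 0.11 (-0.29 to 0.28). Col15a1, the relative of Col18a1, stood at -0.06 ± 0.27 (SE). The membrane-spanning collagens were dim or variable, with Col13a1 at -0.33 ± 0.17 (SE), Col17a1 at 0.35 ± 0.75 and Col25a1, not above background, at -0.40 ± 0.75.

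Other probe sets of the same genes gave a second reading. Of the 36 genes 19 had more than 1 probe set. Of the 22 probe sets not chosen, 17 were lower in the null pools, and of the 17 above background 15 were. The sign differed from that of the chosen probe set in 3, those of Col1a1, Col4a6 and Col5a3, and the last 2 were not above background.

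Genes that make, process and bind collagen are given from lists fixed beside the classes, with values for the 3 of smallest p in each. No listed gene passed limma's adjusted threshold, and 0% of all genes did. Of all genes 48.7% were lower, 2.37% lower and 2.57% higher with an unadjusted p under 0.05, and 4.98% wholly lower and 5.62% wholly higher without overlap. Of 12 measured enzymes that modify collagen chains 10 were lower, with a median of -0.18, and 2 of the 12 were lower with an unadjusted p under 0.05 (2.37% of all genes). P4ha2, the catalytic subunit of a prolyl hydroxylase that stabilises the triple helix, read 8.77, 8.79 and 9.02 in wild type and 8.28, 8.44 and 8.37 in null arrays (-0.49 ± 0.11 SE, unadjusted p = 0.00654, adjusted p = 0.867). P4ha1, the subunit of the related enzyme, read 9.42, 9.35 and 9.52 in wild type and 9.01, 9.17 and 9.19 in null arrays (-0.31 ± 0.11 SE). Neither gene overlapped between genotypes, nor did P3h3, a relative of the prolyl 3-hydroxylases (-0.32 ± 0.15 SE), which made 3 of 12 wholly lower against 4.98% of all genes.

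Chaperone and secretion genes were lower in 6 of 7, with a median of -0.16 and none at an unadjusted p under 0.05. Serpinh1, the collagen chaperone HSP47, stood at -0.24 ± 0.13 (SE), the disulfide isomerase gene Pdia3 at -0.19 ± 0.12 and Mia3, which loads procollagen for export, at -0.16 ± 0.12. Of 9 genes of propeptide removal and cross-linking 7 were lower, with a median of -0.11. Bmp1, the enzyme that trims the carboxyl propeptide, was 1 of 2 higher genes in that list, reading 8.69, 8.63 and 8.68 in wild type and 8.89, 9.09 and 8.99 in null arrays. Every null array was higher, by 0.32 ± 0.10 (SE, unadjusted p = 0.0209, adjusted p = 0.945 in limma). The cross-linking enzyme gene Lox stood at -0.25 ± 0.12 (SE), and Tll1, the other higher gene and not above background, at 0.86 ± 0.43.

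Collagenases and their inhibitors were lower in 9 of 11, with a median of -0.22 and none at an unadjusted p under 0.05. Ctsk, the collagen-degrading protease of osteoclasts, read 10.17, 9.75 and 9.70 in wild type and 9.92, 8.65 and 8.55 in null arrays (-0.83 ± 0.41 SE). Mmp14 stood at -0.25 ± 0.15 (SE) and Timp1 at -0.23 ± 0.18. Collagen receptors were lower in 4 of 6, with a median of -0.09, and Itga2, a collagen-binding integrin chain with a null mean not above background (4.17 and 3.27), had the 1 unadjusted p under 0.05 of these 6, where 4.94% of all genes had one (0.0134, with an adjusted p of 0.884 in limma). Mrc2, which takes up collagen fragments, stood at -0.27 ± 0.16 (SE) and Itgb1, the shared integrin partner, at -0.14 ± 0.11.

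Transcription factors that drive collagen genes were lower in 6 of 9, with a median of -0.15 and none at an unadjusted p under 0.05. The osteoblast factor gene Sp7 stood at -0.28 ± 0.13 (SE) without overlap, the tendon factor gene Scx at 0.29 ± 0.20 and Runx3, not above background, at -1.01 ± 1.17. Sox9, the factor that switches on Col2a1, was looked at after its values were seen and overlapped, at -0.21 ± 0.33 (SE).

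One sign of RNA quality moved with genotype. The 3' minus 5' log2 signal of beta-actin control probe sets was 0.76, 0.71 and 0.80 in wild type and 0.89, 0.86 and 1.08 in null arrays, each null array higher. For Gapdh it was 0.19, 0.32 and 0.25 against 0.18, 0.35 and 0.52, with overlap. The part of RNA quality in the collagen values was not tested.

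**Figure D4:**
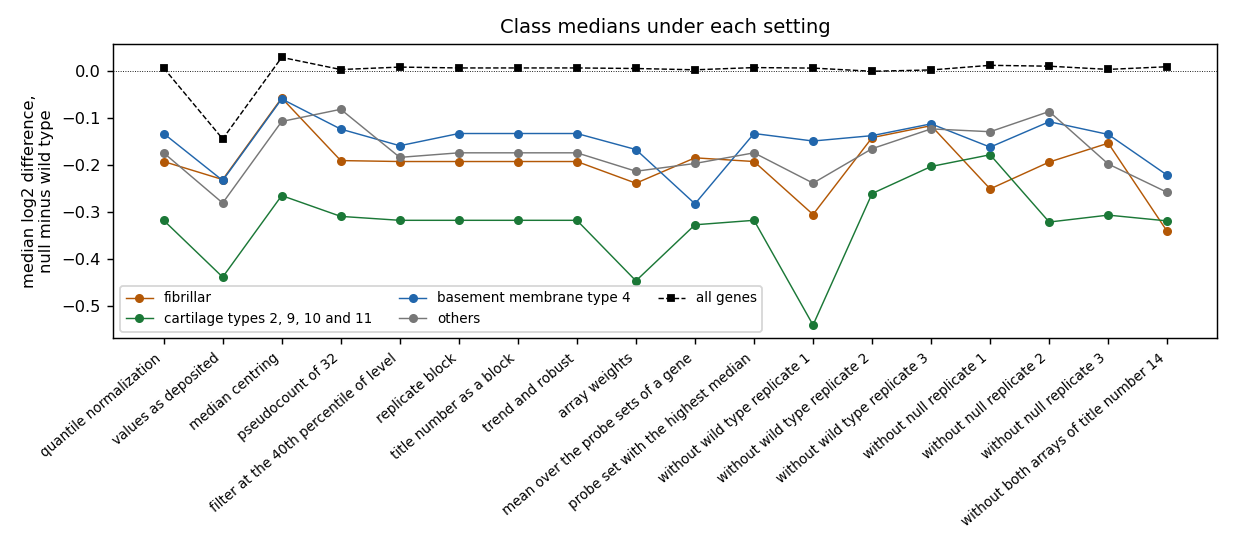
Median log2 difference (null minus wild type, vertical axis) over the genes of each collagen class and over all genes (black squares) under each setting of the analysis on the horizontal axis. Every class median stays below the median of all genes, which itself lies at -0.14 on the deposited values, and the cartilage median spans -0.54 (wild type replicate 1 left out) to -0.18 (null replicate 1 left out).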

How the data were processed

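Signals of 22690 probe sets on each of 6 arrays were deposited on a log2 scale. The base was taken from the range of the values, and how the authors summarised, background-corrected or normalized the signals is not given in the sources used here. Array medians differed, so after leaving out 64 control probe sets the arrays were quantile normalized over 22626 probe sets. Of these, 20380 were annotated to 1 gene, and symbols were checked by Entrez identifier against RefSeq (GRCm38.p6), with no entry for 29 and no symbol changed. Genotypes came from the sample titles.

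The test was that of limma 3.58.1 (R 4.3.3; lmFit, eBayes, genotype only, two-sided) over all genes or all probe sets, with Benjamini-Hochberg adjustment and a threshold of 0.05. The procedure was tested on simulated data with independent noise for each gene and planted changes larger than most collagen differences here. That test did not cover differences as small as most of these, nor genes that vary together. Classes are given by counts and medians without a test. Collagen genes, classes, pathway lists and markers were chosen with earlier results of these data known.

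Given by array were the cartilage genes, Col1a1, Col1a2, Col3a1, Col4a1, Col4a2, and any other member with an unadjusted p under 0.05, or above background without overlap. P-values set the difference between genotypes against the spread between pools, with variances moderated over all genes or all probe sets. Alternatives comprised other scalings, a pseudocount of 32, a filter at the 40th percentile of level, the replicate or title number as a block, trended and robust variances, array weights (statmod 1.5.0), other probe set rules and leaving out arrays. Restricting to genes above the median level was added after the data were seen.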

Additional observations from a re-analysis of the deposited data

How the results depend on the processing

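No setting brought a collagen gene past limma's adjusted threshold, and each of the 4 class medians stayed below 0 in all settings tried. The number of the 36 genes with an unadjusted p under 0.05 was 4, where 4.94% of all genes had one. It was 7 with a pseudocount of 32 (5.95% of all genes), 7 with trended and robust variances (4.55%), 8 with array weights (8.31%), 9 with the title number as a block (5.79%) and 3 to 6 with single arrays left out (3.74% to 5.67%). With the replicate block it was 7 (5.75%), Col11a2 and Col9a3 among them. Same-numbered pools did not deviate together over all genes (correlations of 0.02, 0.09 and 0.0074), so the replicate number was not taken as a pairing. Not every array correlated best with its own number.

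The fibrillar median was -0.058 with median centring and -0.34 without both arrays of title number 14. The type 4 median was -0.23 on the deposited values, -0.28 when all probe sets of each gene were averaged and -0.22 without title number 14. With single arrays left out, the median of all collagen genes ran from -0.30 to -0.15, and the ends came from wild type replicates 1 and 3. The fibrillar median ran from -0.31 to -0.12 with the same arrays at its ends. The cartilage median ran from -0.54, with wild type replicate 1 left out, to -0.18, with null replicate 1 left out. That of the others ran from -0.24 (wild type replicate 1) to -0.086 (null replicate 2), and that of type 4 from -0.16 to -0.11. The count without overlap and lower was 2 with median centring (4.28% of all genes), and the count higher was 0 on the deposited values and 0 among genes above the median level, which leave out Col4a4.

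Signs turned for Col1a1 (0.012), Col3a1 (0.072) and Col11a1 (0.027) with median centring and for Col1a1 with its probe sets averaged (0.20). With single arrays left out Col10a1 ran from -3.82 to 0.88, the latter without null replicate 3, and Runx3 from -2.17 to 0.050, the latter without wild type replicate 2. The cause of the other movements was not tested. Against Y-linked probe sets the background was 3.58 in place of 3.86. Signal over background limits the dim genes, and 3 of the 36 had neither group mean above it. By the Y-linked level Col4a4 passed as well, through its null mean alone, which made 34 genes above background.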
